A study of Mus musculus with 2 samples.

Results

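Chromatin accessibility was examined at 43 imprinted genes and host genes of imprinted domains, taken by symbol from the GENCODE M21 annotation of mouse genes, which holds 55413 genes of any type. All 43 were found, in 20 domains. Of these, 19 were counted as having a known germline differentially methylated region (germline DMR) at a start or, for Zdbf2, upstream of it. H19, Meg3 and Rasgrf1, whose control regions also lie upstream, were counted with the other members. The members and the germline DMR starts were chosen from background knowledge, with earlier results of these data known. The tissue was hippocampus (labelled as layer of hippocampus) from female B6CASTF1/J mice, an F1 cross, aged 8 to 10 months. There were 2 DNase-seq libraries, labelled biological replicates 1 and 2, each made from a pool of 2 biosamples and both in the same group, so the design holds no contrast between conditions. The deposited files place the reads of both strains on the mm10 assembly and do not separate alleles. Every value below therefore joins the maternal and the paternal copy, in shares that are unknown. Sequences and motif matches are those of the mm10 reference alone.

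Imprinted genes are transcribed mainly from the copy inherited from the mother or mainly from the copy inherited from the father. The choice is set by DNA methylation laid down in the egg or the sperm at a germline DMR, often the promoter of a paternally expressed gene or noncoding RNA, and kept after fertilisation by the zinc-finger protein ZFP57, which binds its motif when methylated. In brain, imprinted genes take part in growth, maternal behaviour, sleep and synapse function, and several of them use starts or allele choices that other tissues do not.

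In this assay accessible DNA in nuclei is cut by the enzyme DNase I. A peak is a stretch with many cuts, its deposited height is a signal in the authors' own units, and a footprint is a short protected stretch within accessible DNA. The peak lists hold 98902 peaks in replicate 1 and 130199 in replicate 2, and the median peak height was 0.600 in replicate 1 and 0.580 in replicate 2. As a check of the tissue label, markers of neurons had promoter peaks in both libraries at 6 of 6 genes, those of astrocytes at 3 of 3 and those of oligodendrocytes at 3 of 3. Of the microglial markers, Cx3cr1 had low peaks in both (0.394 and 0.342), P2ry12 a peak in replicate 1 alone and C1qa none. The endothelial markers Cdh5 and Cldn5 and the choroid plexus markers Ttr, Folr1 and Kl had none in either library. Since bulk tissue was measured, a low signal in many cells and a high signal in few cells cannot be told apart.

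Most imprinted genes had accessible starts in hippocampus. Both libraries had a peak within 500 bp of a listed start at 33 of the 43 genes (76.7%), against 29.8% of all annotated genes and 59.2% of protein-coding genes. Among the 36 protein-coding members the count was 28 (77.8%), and among the 7 noncoding members it was 5 (71.4%). The genes counted with a germline DMR stood at 18 of 19 (94.7%), with Zdbf2 as the exception. The other members, which include H19, Meg3 and Rasgrf1, stood at 15 of 24 (62.5%). A peak at any start counted here, and Nnat had one at its germline DMR start in replicate 2 alone. CpG-rich starts are open in most tissues, and all genes were split into 5 classes of equal size by the CpG ratio around the 5' end (the observed over expected number of CpG). In the highest class 17 of 18 members had a peak in both libraries (94.4%), against 88.3% of all genes of the class. In the lower classes 16 of 25 members did (64.0%), against 15.2% of all genes of those classes. Of these 25 members 16 were in the class next to the highest, where 12 had a peak in both libraries, against 39.4% of all genes. The class was read at the 5' end, while a peak at any start counted. Snrpn and Blcap were in the lowest class by their 5' ends and had their shared peaks at CpG-rich starts.

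The other readouts gave similar counts. Footprints that overlapped between the libraries were present at the starts of 30 members, against 26.1% of all genes, and at 17 of the 19 genes with a germline DMR. Bases with a false discovery rate (FDR) below 0.05 lay at the starts of 33 members in both libraries, against 30.7% of all genes. With the whole gene record and 20 kb on either side, 41 of 43 members had a peak in both libraries, against 71.7% of all genes. The exceptions were Rian and Rtl1, neighbours in the Dlk1-Meg3 domain, which had a peak there in replicate 2 alone. These readouts were set against all genes of any type only. Shares by gene type, CpG class or length of the gene record were not counted for them.

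Their promoter peaks were of moderate height. Over the 33 members the highest promoter peak had a median of 1.68 in replicate 1 and 1.79 in replicate 2. These compare with 1.88 and 2.25 over the 16511 genes of the whole annotation with a peak in both libraries. Ranked among those 16511 genes by mean signal, 21 of the 33 members lay below the median, 6 below the lower quartile and 5 above the upper quartile. The genes with a germline DMR had medians of 1.68 and 1.67 (n = 18), and the other members 1.68 and 1.79 (n = 15). With the mean of the peaks in the window in place of the highest peak, the median of the genes with a germline DMR, averaged over the libraries, was 1.10, against 1.68. All open genes in the highest class of CpG ratio, which held 17 of the 33 members, had medians of 2.54 in replicate 1 and 2.96 in replicate 2. Those in the next class, which held 12 of the 33, had medians of 1.41 and 1.65. The members are not independent of each other, since Peg3 and Usp29 share their highest peak in both libraries and Nap1l5 and Herc3 share theirs in replicate 1.

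**Figure D1:**
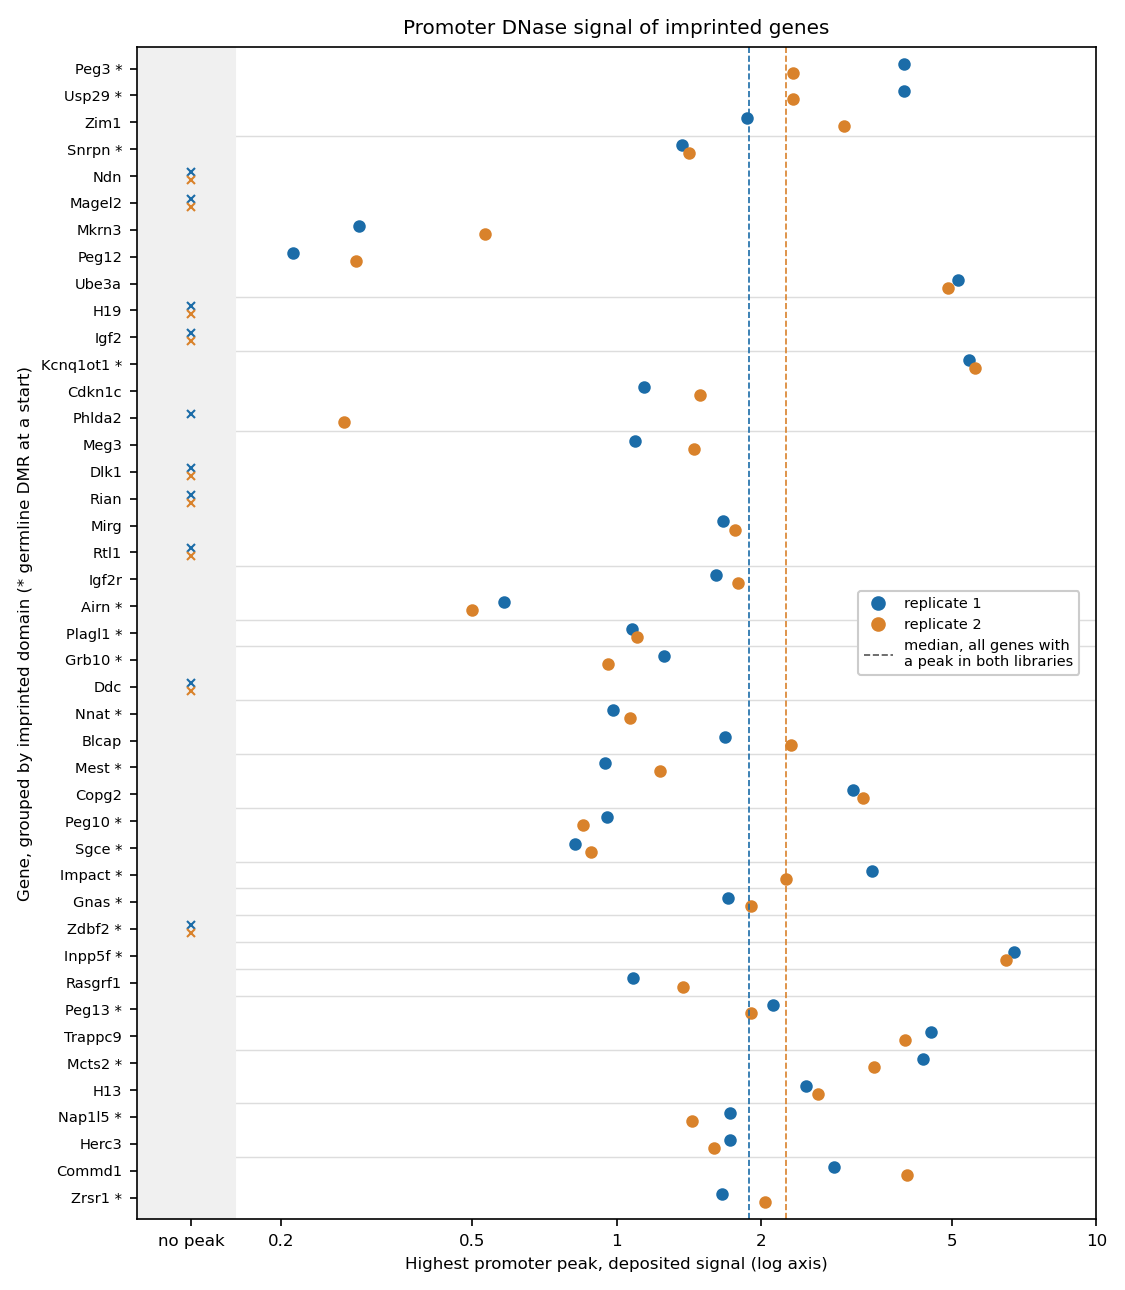
Highest deposited signal of a peak within 500 bp of any start (log axis) for the 43 genes, grouped by domain. Replicate 1 is in blue and replicate 2 in orange, with crosses for no peak and dashed lines at the medians over 16511 genes. Asterisks mark a germline DMR at a start or, for Zdbf2, upstream of it. Inpp5f, Kcnq1ot1 and Ube3a lie at the upper end with signals of 4.91 to 6.73, Peg12 and Mkrn3 at the lower end, and 9 genes had no peak in either library.

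The sequences under the peaks at germline DMR starts were read from the mm10 reference (GRCm38.p6), each on the strand of its gene. The first 3 are shown because a footprint of each library touched a match of a motif there, and the following 4 because they had the highest mean signals among the remaining germline DMR starts, leaving out Impact, whose sequence is not shown here. Capitals mark bases that lay inside a footprint of both libraries.
Zrsr1 chr11:22972841-22973080 (plus strand): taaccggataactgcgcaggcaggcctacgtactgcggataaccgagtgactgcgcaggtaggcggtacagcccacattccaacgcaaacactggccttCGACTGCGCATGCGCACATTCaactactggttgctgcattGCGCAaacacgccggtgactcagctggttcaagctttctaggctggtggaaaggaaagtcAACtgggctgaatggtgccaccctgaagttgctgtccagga
Snrpn chr7:60005061-60005260 (minus strand): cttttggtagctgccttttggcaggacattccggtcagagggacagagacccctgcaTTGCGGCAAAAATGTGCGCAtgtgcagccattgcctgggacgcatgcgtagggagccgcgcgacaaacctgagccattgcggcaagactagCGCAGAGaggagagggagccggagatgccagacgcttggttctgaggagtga
Plagl1 chr10:13090601-13090880 (plus strand): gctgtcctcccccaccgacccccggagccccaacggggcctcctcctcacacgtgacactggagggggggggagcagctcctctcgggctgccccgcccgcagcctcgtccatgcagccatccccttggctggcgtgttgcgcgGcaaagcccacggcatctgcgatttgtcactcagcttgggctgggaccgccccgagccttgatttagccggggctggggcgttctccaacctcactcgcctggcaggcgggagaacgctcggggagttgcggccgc
Kcnq1ot1 chr7:143296581-143296820 (minus strand): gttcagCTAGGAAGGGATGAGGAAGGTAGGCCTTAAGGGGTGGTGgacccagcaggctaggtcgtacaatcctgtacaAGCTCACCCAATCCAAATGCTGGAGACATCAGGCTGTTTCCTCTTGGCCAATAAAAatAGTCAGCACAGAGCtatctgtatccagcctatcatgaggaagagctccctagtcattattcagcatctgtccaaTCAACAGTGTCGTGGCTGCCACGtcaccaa
Mcts2 chr2:152686941-152687100 (plus strand): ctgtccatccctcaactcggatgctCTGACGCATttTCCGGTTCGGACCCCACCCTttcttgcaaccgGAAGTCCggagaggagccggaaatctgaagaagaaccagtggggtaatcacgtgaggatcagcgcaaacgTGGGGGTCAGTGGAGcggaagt
Peg3/Usp29 chr7:6730381-6730620 (minus strand): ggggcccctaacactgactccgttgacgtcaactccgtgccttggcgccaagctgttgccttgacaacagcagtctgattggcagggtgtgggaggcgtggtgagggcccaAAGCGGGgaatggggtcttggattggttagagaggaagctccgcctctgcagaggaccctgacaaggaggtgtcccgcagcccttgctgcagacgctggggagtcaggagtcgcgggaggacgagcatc
Peg13 chr15:72809941-72810160 (minus strand): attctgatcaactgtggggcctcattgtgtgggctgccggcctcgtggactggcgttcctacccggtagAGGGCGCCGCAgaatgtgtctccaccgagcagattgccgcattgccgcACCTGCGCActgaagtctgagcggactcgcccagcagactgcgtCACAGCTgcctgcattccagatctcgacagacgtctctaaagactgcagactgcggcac
In Zrsr1 the longest capital run holds GCGCATGCG, the motif of the transcription factor NRF1, which matches on both strands there. In Snrpn the first capital run holds a ZFP57 motif (TGCCGC, or GCGGCA when read on the other strand), at chr7:60005196-60005201. In Plagl1 footprints of both libraries touched a ZFP57 match at chr10:13090742-13090747 but shared only 1 base. Of these 7 regions Kcnq1ot1 had the most bases in footprints, with 132 of 240 bases inside a footprint of both libraries, against 7 of 240 at Peg3/Usp29.

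The ZFP57 motif was frequent at germline DMR starts. Overlapping peaks were merged, and the matches were counted on both strands. A ZFP57 match was present in 13 of 26 peaks at germline DMR starts in replicate 1 (50%) and 15 of 31 in replicate 2 (48.4%). It was present in 25% and 20.6% of peaks at the other starts of members, in 21.2% and 21.6% of peaks at CpG-rich starts of all genes, and in 7.87% and 6.81% of all peaks. Peaks at germline DMR starts had median GC contents of 60.2% and 57.5% and median widths of 270 and 240 bp, against 64.4% and 64.5% and 260 and 240 bp at CpG-rich starts of all genes.

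The 22 ZFP57 matches shared by the peaks of both libraries belonged to 11 genes, namely Airn, Gnas, Grb10, Inpp5f, Mest, Nap1l5, Peg10, Peg13, Plagl1, Sgce and Snrpn. A footprint touched 7 of them in replicate 1 and 4 in replicate 2, and 2 in both, those of Snrpn and Plagl1 described above. The other motifs searched were rarer. The consensus of CTCF, an insulator protein, and the motif of YY1 (GCCATNTT), a zinc-finger regulator, were found in none of these peaks in either library, against 10.8% and 11.1% of peaks at CpG-rich starts of all genes for CTCF and 7.45% and 7.54% for YY1. The NRF1 motif was found in 1 peak in replicate 1 and 2 in replicate 2, or 3.85% and 6.45%, against 2.97% and 2.98% at CpG-rich starts and 0.737% and 0.594% of all peaks. The CRE motif (TGACGTCA), bound by CREB, was found in 1 peak in each library, that of the Peg3/Usp29 start, or 3.85% and 3.23%, against 2.92% and 2.84% at CpG-rich starts and 0.906% and 0.707% of all peaks. A match is a description of the sequence and does not show that the protein was bound.

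**Figure D2:**
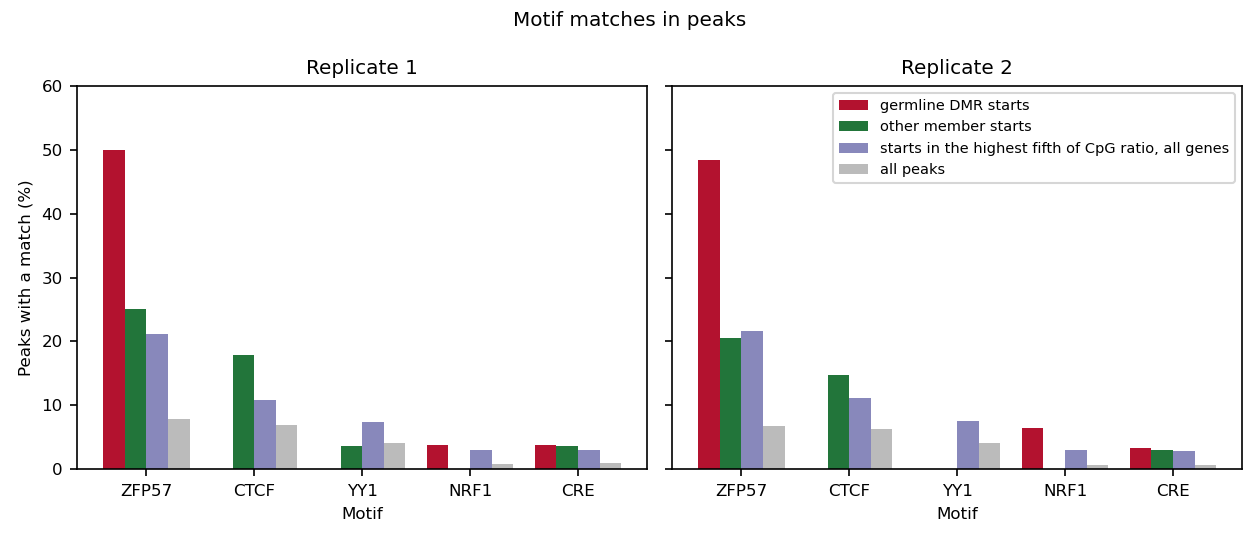
Share of peaks with a match of each of 5 motifs (bars, percent) in replicate 1 and replicate 2, for peaks at germline DMR starts (26 and 31 peaks), at other starts of members (28 and 34), at CpG-rich starts of all genes and for all peaks. The ZFP57 motif was in 50% and 48.4% of peaks at germline DMR starts, and CTCF and YY1 matches were in none of them.

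Most members have several starts, and accessibility fell on few of them. Starts closer than 500 bp to each other were joined into groups, which gave 146 groups for the 43 genes. A peak in both libraries was present at 44 of them (30.1%), against 22.4% of the groups of all genes. The groups at germline DMRs stood at 19 of 22 (86.4%), and the members' other groups at 25 of 124 (20.2%). Which groups counted as germline DMRs was set from background knowledge with earlier results of these data known, so the contrast is only a description. In the highest class of CpG ratio, set over all groups of starts, 17 of 20 groups at germline DMRs and 20 of 33 other groups of members had a peak in both libraries, against 78.3% of all groups in that class. The groups at germline DMRs include that of Zdbf2, whose region lies upstream and which had no peak. Peg3 and Usp29 enter with the same peak, and Peg10 and Sgce share a peak. The 19 open groups at germline DMRs had median signals of 1.55 in replicate 1 and 1.42 in replicate 2.

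Gnas, which encodes the stimulatory G protein alpha subunit, shows this choice of starts in most detail. Its exon 1A start, a germline DMR, had signals of 1.55 in replicate 1 and 1.30 in replicate 2, and the start of the G protein itself 0.788 and 1.12. The highest peak of the gene lay near a start late in the gene, at 1.71 and 1.91. The start of the extra-large transcript, also a germline DMR, had a peak of 0.294 in replicate 2 and none in replicate 1, and the 5'-most start, that of the Nesp transcript, 0.469 in replicate 2 and none in replicate 1. The antisense gene Nespas had 0.485 and 0.437.

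Inpp5f, an inositol phosphatase gene, and Grb10, an adaptor of insulin and growth factor receptors, each have an imprinted brain transcript with its own start. At Inpp5f the main start had the highest promoter signal of all members, 6.73 in replicate 1 and 6.49 in replicate 2, and the start of the imprinted variant 2 had 1.45 and 1.30. At Grb10 the brain-type start, which is used by the paternal copy in neurons, had 1.25 and 0.962, in peaks that did not overlap. It had 4 shared footprints. No other start group of Grb10 had a peak in both libraries, and the 5'-most starts, known as the source of the maternal transcript in other tissues, had none in either. Ddc, next to Grb10, encodes the decarboxylase of dopamine and serotonin synthesis and had no promoter peak, but intron peaks of 1.58 and 1.81 and of 0.509 and 0.565.

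Plagl1, a zinc-finger regulator of growth, had 1.08 and 1.11 at its imprinted start and 0.436 and 0.429 at its upstream start, which is known to be used from both copies. Snrpn, a splicing protein gene, had 1.37 and 1.42 at the germline DMR and a peak at its far upstream start in replicate 2 alone, at 0.374. The same order held in both libraries at these 2 genes, with the germline DMR start higher.

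**Figure D3:**
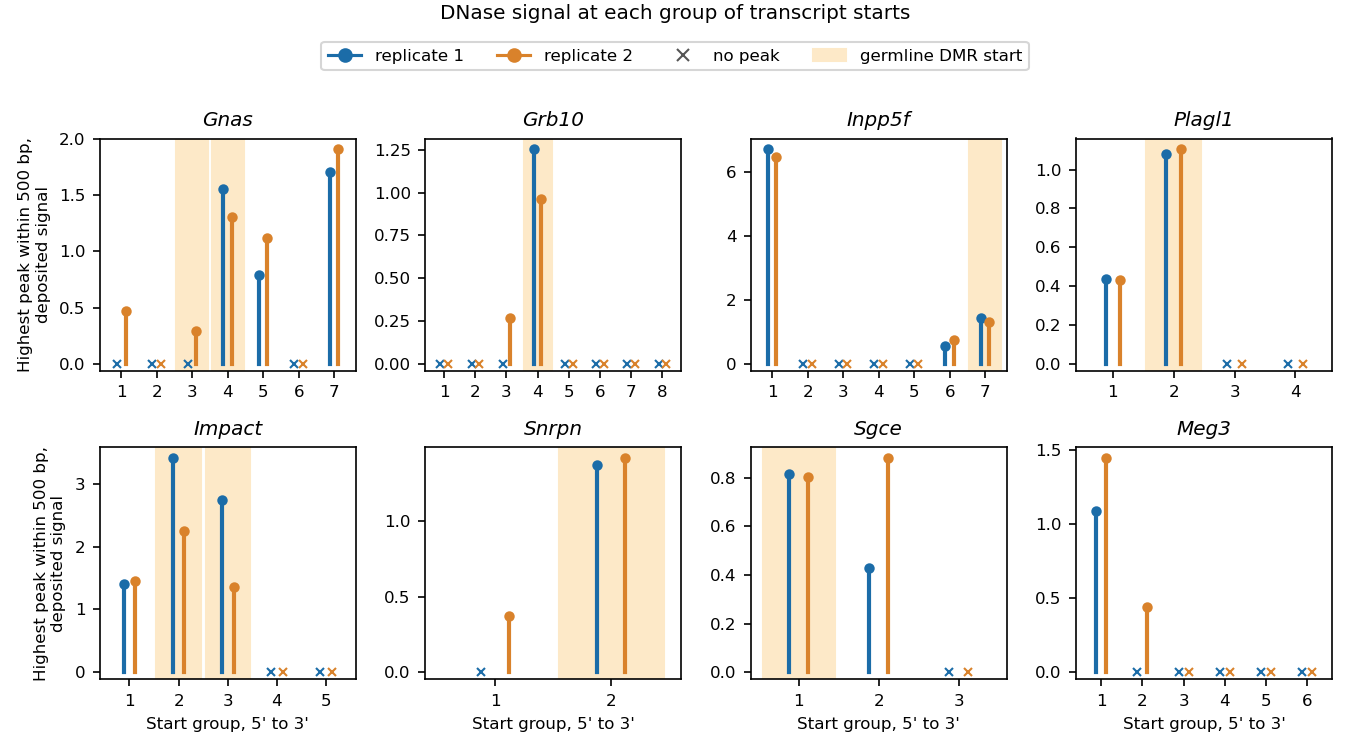
Deposited signal of the highest peak within 500 bp at each group of starts, numbered 5' to 3', for 8 genes in replicate 1 (blue) and replicate 2 (orange), with crosses for no peak and shading for germline DMR starts. At Grb10 the shaded start is the only one with a peak in both libraries, and at Inpp5f the first start is higher than the shaded one, at 6.73 and 6.49 against 1.45 and 1.30.

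At the Peg3 domain the germline DMR start is shared by Peg3, a zinc-finger gene of maternal care and growth, and Usp29, a ubiquitin protease gene that runs in the opposite direction. The shared peak stood at 3.97 in replicate 1 and at 2.33 in replicate 2 (3.15 ± 1.16, SD, n = 2). Further peaks lay in the first intron of Peg3, within the known germline DMR, at 6.32 and 4.25, 4.60 and 4.09, and 3.84 and 3.31. The first 2 were higher than the start peak in both libraries, and the last in replicate 2 alone. The stretch that holds these intron peaks, chr7:6727381-6729700, has 11 YY1 matches, all on the minus strand, the strand of Peg3. Footprints of both libraries touched 8 of the 11, where a touch at any base of a match counted. How often other stretches of that length were touched there was not counted, so this does not show that YY1 was bound. By single bases, 17.8% of the stretch lay in a footprint of both, a share not comparable with the count of matches.

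A window of 240 bases with 3 YY1 matches, the most in any window of that length in the stretch, shows how they repeat. It was chosen after the values had been seen, and capitals mark the YY1 matches. The match at chr7:6727934-6727941 was touched by no footprint in either library, and the others in the window by footprints of both.
Peg3 first intron chr7:6727732-6727971 (minus strand): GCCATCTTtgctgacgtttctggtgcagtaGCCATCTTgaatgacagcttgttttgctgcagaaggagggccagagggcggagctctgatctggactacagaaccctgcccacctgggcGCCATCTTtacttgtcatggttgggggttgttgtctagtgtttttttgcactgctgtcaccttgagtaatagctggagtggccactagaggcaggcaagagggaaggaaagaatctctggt
Zim1, the maternally expressed neighbour of Peg3, had a promoter signal of 1.87 in replicate 1 and 2.98 in replicate 2, higher in replicate 2, where Peg3 was lower.

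In the Prader-Willi and Angelman domain the maternally expressed ubiquitin ligase gene Ube3a had 5.15 and 4.91 at its start, above the upper quartile of the open genes. The paternally expressed genes of the domain other than Snrpn were low or had no peak near their annotated start. Mkrn3, a ubiquitin ligase gene whose loss leads to early puberty in humans, had 0.291 and 0.533, and Peg12 0.212 and 0.286, the lowest of the members with a peak in both libraries. Ndn and Magel2, which belong to the MAGE family, had no peak within 500 bp of their annotated start in either library. The annotated Ndn start lies in CpG-poor sequence, with a CpG ratio of 0.170. Ndn had a peak within its exon, 1612 bp from that start in replicate 1 and 1592 bp in replicate 2, at 1.01 and 1.11. It had 3 shared footprints and an NRF1 match under a footprint of both libraries. Whether this peak marks a start that the annotation lacks was not tested. Magel2 had its nearest peak 5511 bp from the start in both libraries, at 0.430 and 0.676.

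In the Kcnq1 domain the start of Kcnq1ot1, the long noncoding RNA that silences its neighbours on the paternal copy, had 5.43 in replicate 1 and 5.57 in replicate 2 (5.50 ± 0.103, SD, n = 2). It was the highest signal at any germline DMR start. This peak lay just upstream of the start, and the bases it shared between the libraries had a CpG ratio of 0.2. A peak in the exon, with a ZFP57 match, had 0.321 in replicate 1 and 0.493 in replicate 2. Of the genes it silences, Cdkn1c, a cell-cycle inhibitor, had 1.14 and 1.49, while Phlda2, a growth-restraining gene of the placenta, had no peak in replicate 1 and 0.270 in replicate 2. In the Igf2r domain, where the silencing RNA is Airn, the order was the other way. Airn had 0.582 and 0.501, and Igf2r, the receptor that clears insulin-like growth factor 2 and a gene transcribed from both copies in neurons, had 1.61 and 1.79. The highest peak within the Airn record lay in an intron, at 2.26 and 2.78.

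The starts of H19, a maternally expressed noncoding RNA, and Igf2, a paternally expressed growth factor, had no peak in either library. The control region between them, which is methylated on the paternal copy, lies 2 to 4.5 kb upstream of H19, and this window had 3 peaks in each library. In the authors' stricter peak list it had no peak in replicate 1. The top signal was 0.473 in replicate 1, below the median peak of that library, and 0.716 in replicate 2, above it. The window holds 4 matches of the CTCF consensus, shown because CTCF binding to the unmethylated copy is the known function of this region. Capitals mark the match, with 15 reference bases on either side.
H19 match 1 chr7:142580294-142580337 (minus strand): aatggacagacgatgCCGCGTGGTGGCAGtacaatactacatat
H19 match 2 chr7:142580749-142580792 (minus strand): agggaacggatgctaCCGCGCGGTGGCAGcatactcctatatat
H19 match 3 chr7:142581775-142581818 (minus strand): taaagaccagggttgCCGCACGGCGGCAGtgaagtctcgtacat
H19 match 4 chr7:142582019-142582062 (minus strand): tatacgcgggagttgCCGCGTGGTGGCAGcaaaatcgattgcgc
All 4 lay in a peak of replicate 2. In replicate 1 matches 1 and 2 lay in a peak, match 3 overlapped the edge of a peak and match 4 lay outside. A footprint touched matches 1 and 2 in replicate 1 and matches 2 and 3 in replicate 2, so only match 2, 2628 bp upstream of the H19 start, had a footprint in both libraries.

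In the Dlk1-Meg3 domain Meg3, the maternally expressed noncoding RNA, had 1.09 and 1.45 at its first start. Mirg, a microRNA host RNA at the far end of the domain, had 1.67 and 1.77 near a late start, 417 bp from it. Dlk1, a transmembrane Notch-pathway gene, and Rian and Rtl1 had no promoter peak in either library. The window of 5 to 20 kb upstream of Meg3, which holds the intergenic germline DMR, had 0 peaks, 0 footprints and 0 bases below an FDR of 0.05 in both libraries. The highest peak in the Meg3 record and flanks overlapped an exon of Meg3, at 2.41 and 2.24, with a CTCF match and an NRF1 match, each under a footprint of both libraries. Its sequence, picked after the values had been seen, is shown with those matches in capitals.
Meg3 chr12:109542941-109543180 (plus strand): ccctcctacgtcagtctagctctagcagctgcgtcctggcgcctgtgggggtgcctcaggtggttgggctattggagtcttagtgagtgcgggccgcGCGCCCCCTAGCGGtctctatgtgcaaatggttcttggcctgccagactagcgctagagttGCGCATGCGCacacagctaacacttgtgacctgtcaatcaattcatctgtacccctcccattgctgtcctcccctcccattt

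**Figure D4:**
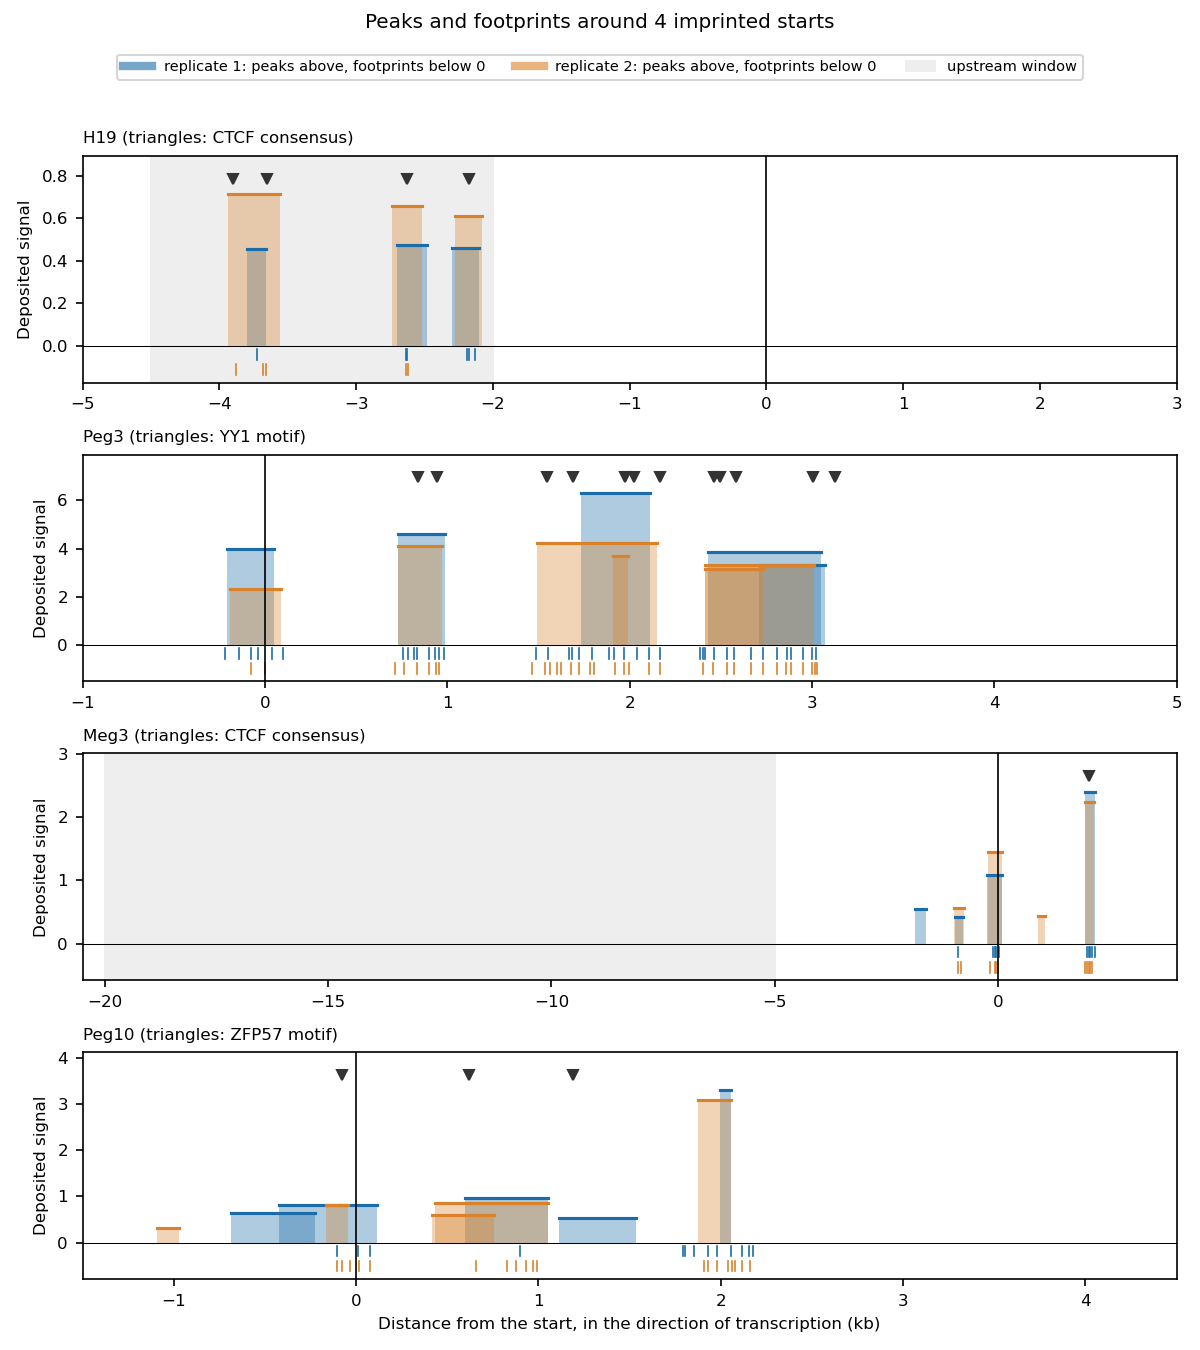
Peaks (bars, deposited signal) and footprints (ticks below 0) of replicate 1 (blue) and replicate 2 (orange) by distance from the start of H19, Peg3, Meg3 and Peg10 in kb, with triangles at motif matches and grey shading for the upstream windows of H19 and Meg3. The H19 window holds 3 peaks in each library, with top signals of 0.473 and 0.716, the first intron of Peg3 holds peaks of up to 6.32, and the Meg3 window is empty.

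The third upstream control region, 20 to 40 kb before Rasgrf1, a Ras exchange factor of neurons, is also methylated on the paternal copy. It had 4 peaks in replicate 1 and 5 in replicate 2, with top signals of 0.794 and 0.954. The window holds 1 CTCF match, at chr9:89886070-89886083, outside the peaks of both libraries but touched by a footprint in each. The Rasgrf1 start had 1.08 and 1.38.

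Several imprinted genes lie inside or beside a larger host gene, and all 6 such hosts in the list (Blcap, Copg2, Trappc9, H13, Herc3 and Commd1) had a promoter peak in both libraries. All are protein-coding, and 59.2% of protein-coding genes had such a peak. Copg2, H13, Herc3 and Commd1 are in the highest class of CpG ratio, in which 88.3% of all genes did. Mcts2, a translation factor copy inside H13, had 4.34 and 3.44, and H13, a signal peptide peptidase, 2.48 and 2.63. Nap1l5, a nucleosome assembly protein copy, had 1.73 and 1.44 in an intron of Herc3, whose own 5'-most start had 0.903 and 1.60. Zrsr1, a splicing factor copy inside Commd1, had 1.66 and 2.04, and Commd1, a regulator of copper balance, 2.84 and 4.03. In both libraries the imprinted gene was higher than its host at Mcts2 and lower at Zrsr1, and also lower at Peg13, Nnat and Mest, given below. At Nap1l5 and the 5'-most start of Herc3 the order differed between the libraries. The Zrsr1 peak also lay at another listed start of Commd1.

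Peg13, a noncoding RNA of brain inside Trappc9, had 2.11 and 1.91, and Trappc9, a vesicle transport gene, 4.53 and 4.0. A peak 6237 bp from the nearest Trappc9 start was the highest found in any member's record and flanks, at 11.1 and 8.68, with 8 shared footprints and an NRF1 match. Nnat, a membrane proteolipid of developing neurons, had no peak in replicate 1 and 0.851 in replicate 2 at its main start, a germline DMR, and 0.982 and 1.07 at a start just downstream. Its host Blcap had 1.68 and 2.31.

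Mest, a hydrolase gene of mesoderm, had 0.945 and 1.23 at its germline DMR, below its neighbour Copg2, a coat protein subunit, at 3.11 and 3.26. Peg10, a retrotransposon-derived gene, and Sgce, a sarcoglycan gene, start next to each other on opposite strands. The highest promoter peak of Peg10 had 0.957 and 0.851, and the Sgce start next to it 0.818 and 0.803. A second start of Sgce, within the gene, had 0.430 and 0.883. A much higher peak lay within Peg10, at 3.30 and 3.09, with 4 shared footprints and none of the 5 motifs. Zdbf2, whose germline DMR lies upstream of the gene, had no promoter peak and a nearest shared peak in its flank, at 0.515 and 0.684.

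Impact, a regulator of translation in neurons, has its germline DMR in the first intron, where annotated starts also lie. Those starts had 3.41 and 2.25, and 2.73 and 1.35, against 1.41 and 1.46 at the 5' end. The highest peak of the gene lay between them in the intron, at 5.31 and 3.01 (4.16 ± 1.62, SD, n = 2).

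The 2 libraries gave like values at most members, with a shift towards replicate 1 at genes with a germline DMR. Over the 16511 open genes the log2 ratio of replicate 1 to replicate 2 had a median of -0.15, a 5th percentile of -0.68 and a 95th percentile of 0.34. The ratio took each library's highest peak at any start, which at Inpp5f, Gnas and Nnat was not at the germline DMR start. At Sgce it was at the germline DMR start in replicate 1 (0.818) and at a start within the gene in replicate 2 (0.883). The genes with a germline DMR had a median of 0.10, with 15 of 18 above the median of all genes, and the other members a median of -0.34, with 6 of 15 above it. The 4 members above the 95th percentile were Peg3 and Usp29 (0.77, the same peak), Impact (0.60) and Grb10 (0.38), all with a germline DMR, and the 1 below the 5th percentile was Mkrn3 (-0.87). The Grb10 ratio sets 2 peaks against each other that did not overlap. Its highest overlapping pair by mean signal had 1.07 in replicate 1 and 0.962 in replicate 2. The direction of the shift rests on 2 libraries of 1 group, and its cause was not tested.

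**Figure D5:**
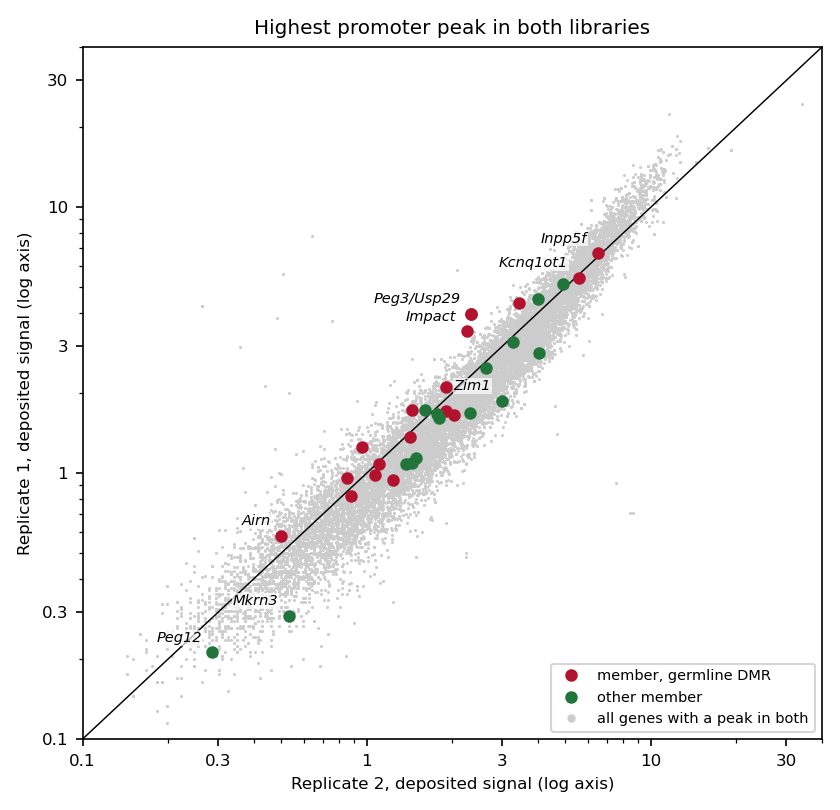
Highest promoter signal in replicate 1 against replicate 2 (log axes) for all 16511 genes with a peak in both libraries (grey), members with a germline DMR (red) and other members (green), with the line of equal values. Peg3/Usp29 and Impact lie above the grey cloud's main body and Mkrn3 below it, with log2 ratios of 0.77, 0.60 and -0.87.

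Of 38 further imprinted genes outside the 43, both libraries had a promoter peak at 17 (44.7%), against 29.8% of all genes and 59.2% of protein-coding genes. The highest were Nap1l4 (9.19 ± 0.578), Tssc4 (8.35 ± 0.894) and Bcl2l1 (5.25 ± 0.512; mean ± SD, n = 2), a histone chaperone, a splicing factor and a survival gene. Of 26 genes whose proteins set, keep or read imprints, 21 had a peak in both (80.8%), against the same shares of all genes and of protein-coding genes and 88.3% of genes in the highest class of CpG ratio. The highest were Arid4a (11.1 ± 2.41), Mbd3 (10.0 ± 2.73) and Arid4b (6.60 ± 0.559). The germ-cell and early-embryo genes Dnmt3l, Dppa3 and Ctcfl had none in either library, and Zfp57 (0.390) and the methyltransferase gene Dnmt3a (0.891) had a peak in replicate 2 alone. Zfp445, the other zinc-finger protein of imprint maintenance, had 1.25 in replicate 1 and 1.43 in replicate 2.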

How the data were processed

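DNase-seq files of 2 mouse hippocampus libraries were analysed. Per the labels, reads were placed on mm10 and each library's files were made on their own; no source used here gives the aligner, the peak caller or the footprint caller. The deposited peak heights are a signal that is never negative, in the authors' units, and the depth behind it is unknown. The deposited FDR values, which are of p-value type, stop at 0.05, and the footprints carry the authors' p-value type threshold of 0.01 in every row.

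The larger peak list was used, with a minimum overlap of 1 bp, in windows of 500 bp on either side of any GENCODE M21 start. A gene's signal was that of its highest peak. The 5 classes of CpG ratio were set over all genes, or over all groups of starts. Intervals were handled with bedtools 2.31.1, samtools 1.23.1 and pysam 0.24.0, and the overlap and motif code was tested on simulated data. With 1 group no test was made, and no p-value is given. All members are named; regions were shown first where footprints of both libraries touched a motif match, then by mean signal, up to 10, of which 7 are printed, and the sequence of Impact is not shown here. From the other lists, the 3 highest genes are named, and genes without a peak where most of the list had one. Zfp445, Zfp57 and Dnmt3a were named after their values were seen. The members, the lists and the known germline DMR starts were chosen with earlier results of these data known. Nothing in the labels says that the pools came from separate animals, so the spread between libraries may be technical.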

Additional observations from a re-analysis of the deposited data

How the results depend on the processing

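Alternatives changed the peak list, the window, the starts, the overlap rule, the FDR limit, the footprint rule and the library used. The count of 33 members with a promoter peak in both libraries lay between 26 (5' end of the gene record only) and 35 (window of 2000 bp), and that of 18 genes with a germline DMR between 13 and 18. The counts of members with a shared footprint (30 to 32), FDR bases (31 to 35) or a peak in the record and flanks (33 to 43) also stayed within 1.5 times, as did those of the other imprinted genes (12 to 23) and the imprint regulators (14 to 23). The median promoter signal of the genes with a germline DMR, 1.68, moved to 1.10 with the mean of the peaks in the window, to 1.81 with the stricter peak list and to 1.84 with the window of 2000 bp; without each replicate it was 1.67 and 1.68. Of the upstream windows, 2 had a peak in both libraries and 1 did with the stricter list, in which the H19 window had no peak in replicate 1; without each replicate the count was 2. No paired analysis was possible because both libraries belong to the same group. Depth limits the low values: a member without a peak was not detected at this depth, which does not show that its start was closed, and replicate 2 lists more peaks than replicate 1.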
